A study of Homo sapiens with 9 samples.

Results

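The 36 genes described here encode proteins of homologous recombination, the Fanconi anaemia pathway, mismatch repair and the DNA damage checkpoint. They were chosen by symbol, and each was found by the Ensembl identifier that carries that symbol in GENCODE release 29, which gave 36 of the 58721 genes in the count files. They fall into 6 groups by role: 5 BRCA proteins, 7 strand exchange proteins, 7 resection and dissolution proteins, 5 checkpoint proteins, 10 Fanconi proteins and 2 mismatch repair proteins. All were measured by RNA sequencing in H1299 cells, a permanent line of human non-small cell lung carcinoma. 3 libraries came from cells given 0.1 mM melatonin, 3 from cells given siCLOCK, a small interfering RNA against the circadian transcription factor CLOCK, and 3 from control cells in serum free medium. The labels describe 3 independent samples a group without saying whether these were separate cultures, so p-values measure the spread between these samples, which may be technical. They give no treatment time and no non-targeting siRNA control, and it is not stated whether the melatonin and siCLOCK cells were also kept without serum.

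Homologous recombination repairs a broken chromosome by copying the intact sister: nucleases trim the broken ends, BRCA proteins load a recombinase on the exposed strand, and that filament invades the matching duplex. The Fanconi proteins unlock crosslinks between DNA strands by attaching ubiquitin to the FANCD2 and FANCI pair, and mismatch repair removes mispaired bases left by replication. Because a sister copy exists only after replication, many of these genes are expressed mainly in dividing cells, and loss of several of them underlies inherited breast, ovarian and bowel cancer or Fanconi anaemia.

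The libraries held 15384539 to 19192962 counts assigned to genes, and no member had fewer than 81 counts in any library, so all 36 passed the filter on low counts. CLOCK, the siRNA's target, stood at 40.9, 41.6 and 39.0 CPM (counts scaled to library size) in the melatonin libraries, 20.9, 32.0 and 38.2 CPM in the siCLOCK libraries and 39.0, 38.6 and 44.4 CPM in the control libraries, and its siCLOCK change did not pass (log2 fold change -0.42, adjusted p = 0.341). In the library labelled siCLOCK replicate 3, CLOCK lay only just below the lowest control. The melatonin libraries and the library labelled siCLOCK replicate 3 also stood apart technically, with 2.24% to 2.34% unmapped reads against 1.22% to 1.36% in the other 5 libraries and 0.314% to 0.324% of counts in processed pseudogenes against 0.163% to 0.172%. Of the defining markers, KRT8, KRT18 and VIM were abundant, the epithelial markers EPCAM and CDH1 and the surfactant genes SFTPB and SFTPC reached at most 0.476 CPM in any library, the lung lineage markers NKX2-1 and NAPSA at most 1.39 CPM, and the blood markers CD3E and HBB were at 0.

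Most of the recombination and Fanconi genes were lower in melatonin-treated cells than in controls. By edgeR's quasi-likelihood test with Benjamini-Hochberg adjustment over all genes and a threshold of 0.05, 22 of the 36 members fell (61.1%), where 12.1% of the 16441 genes tested were lower, and 2 members rose, where 11% of all genes were higher. The 12 others did not pass. The largest falls were those of RAD51AP1 and RAD54L, which act in strand invasion, and of FANCD2 and FANCI, the pair that the Fanconi pathway tags with ubiquitin; the 2 that rose were the break sensors ATM and NBN. The median log2 fold change of the 36 was -0.31, against 0.011 over all genes tested. In 24 members every melatonin library lay below every control library, which was so for 21.4% of all genes tested, and in 2 members every melatonin library lay above every control, as in 21.9% of all genes.

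**Figure D1:**
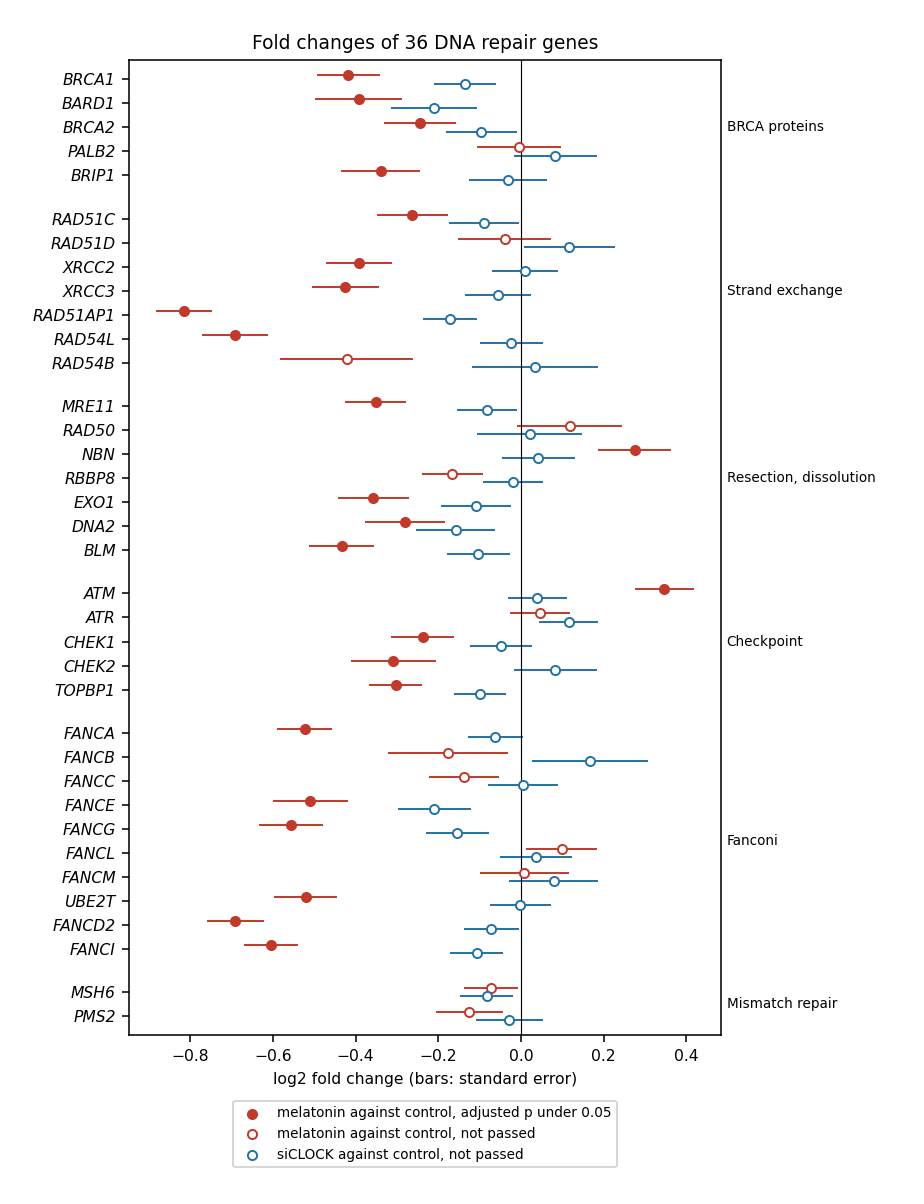
Log2 fold change of each of the 36 genes (x axis, bars are standard errors) for melatonin against control in red and siCLOCK against control in blue, with genes grouped by role down the y axis and filled points marking an adjusted p under 0.05. 22 red points are filled on the negative side and 2, NBN and ATM, on the positive side, while no blue point is filled.

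The changes were small per gene: the fitted level of RAD51AP1 fell by 43.2%, and the smallest fall that passed was that of CHEK1 (-0.24), with BRCA2 closest to the threshold (adjusted p = 0.0498). Summed over the 36 members, the level was 1538, 1492 and 1504 CPM in the melatonin libraries, 1808, 1677 and 1777 CPM in the siCLOCK libraries and 1754, 1808 and 1911 CPM in the control libraries. All 3 melatonin sums lay below every other library, while the siCLOCK and control sums overlapped. Markers of the line moved with them: KRT8 (-0.31, adjusted p = 0.0093), KRT18 (-0.31, adjusted p = 0.0189) and VIM (-0.30, adjusted p = 0.00251) fell in melatonin against control. The 6 epithelial and line markers, of which these 3 passed, summed to 1819 to 1875 CPM in melatonin libraries. Their sums were 2231 to 2451 CPM in siCLOCK and 2160 to 2499 CPM in control libraries. Most of each sum was VIM, which averaged 1503, 1865 and 1853 CPM in the same order. The 5 lung lineage markers, none of which passed, summed to 2.07 to 2.21, 1.35 to 1.94 and 1.57 to 1.96 CPM in the same order. Of 10 markers of other cell types COL1A1 alone passed (-0.96, adjusted p = 0.00437), and their sums were 4.26 to 5.67 CPM in melatonin, 5.41 to 7.24 CPM in siCLOCK and 5.61 to 5.95 CPM in control libraries. The part of these markers in the repair genes' change was not tested.

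In the same libraries 20 S phase genes had medians of -0.68, -0.62 and -0.60 in melatonin, on a log2 scale relative to control, against -0.056 to 0.051 in the controls themselves; what part cell cycle state has in the repair genes' change was not tested. In bulk RNA, fewer cells in S or G2 phase and less of each transcript per cell cannot be told apart.

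**Figure D2:**
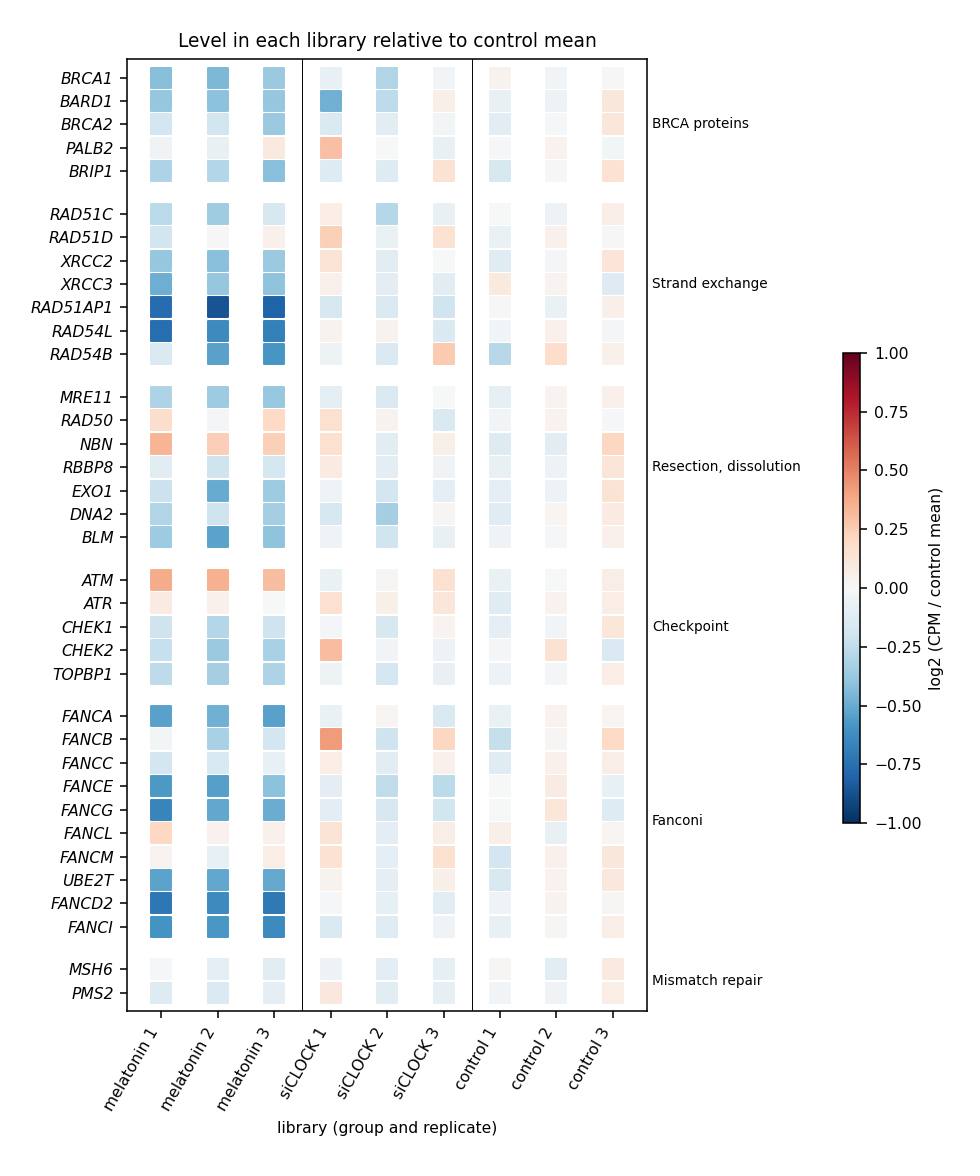
CPM of each gene in each of the 9 libraries relative to its control mean, on a log2 colour scale from -1 (blue) to 1 (red), with melatonin libraries left, siCLOCK libraries in the middle and control libraries right. The strongest blue runs through all 3 melatonin columns for RAD51AP1, RAD54L, FANCD2 and FANCI, and ATM is red in all 3.

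The sequence upstream of the transcription start is shown for 7 members, the member with the smallest p of each group and the only one with an E-box, because the groups moved to different degrees and promoters of cell cycle and clock genes carry known motifs. The 250 bases before the start were searched on both strands for the E2F motif (TTCCCGC together with TTCGCGC, also TTGCCGC and finally TTGGCGC), the CHR motif of late cell cycle genes (TTTGAA and the variant TTTAAA) and the E-box that CLOCK binds (CACGTG); no letters of these motifs overlap in the promoters shown. Sequences and starts come from RefSeq on GRCh38.p14 and run 5′ to 3′ on the gene's strand, at chr17:43125365-43125614 (minus strand) for BRCA1, chr12:4538640-4538889 (plus) for RAD51AP1, chr15:90717096-90717345 (plus) for BLM, chr11:108222817-108223066 (plus) for ATM, chr3:10026187-10026436 (plus) for FANCD2, chr7:6009107-6009356 (minus) for PMS2 and chr13:32315258-32315507 (plus) for BRCA2. Capitals mark the motif.
BRCA1: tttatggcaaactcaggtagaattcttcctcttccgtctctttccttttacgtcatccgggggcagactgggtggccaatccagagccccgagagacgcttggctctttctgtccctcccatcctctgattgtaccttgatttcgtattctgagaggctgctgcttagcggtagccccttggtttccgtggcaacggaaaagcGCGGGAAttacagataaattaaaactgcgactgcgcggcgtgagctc
RAD51AP1: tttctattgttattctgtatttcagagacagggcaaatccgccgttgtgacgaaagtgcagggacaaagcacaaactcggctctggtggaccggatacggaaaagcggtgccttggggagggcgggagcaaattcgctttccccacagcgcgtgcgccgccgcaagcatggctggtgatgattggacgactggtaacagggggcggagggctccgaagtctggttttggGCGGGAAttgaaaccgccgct
BLM: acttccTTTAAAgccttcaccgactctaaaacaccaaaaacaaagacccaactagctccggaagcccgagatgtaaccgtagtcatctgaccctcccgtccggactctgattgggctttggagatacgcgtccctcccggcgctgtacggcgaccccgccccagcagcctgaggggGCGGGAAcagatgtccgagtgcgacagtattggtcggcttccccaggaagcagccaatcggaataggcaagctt
ATM: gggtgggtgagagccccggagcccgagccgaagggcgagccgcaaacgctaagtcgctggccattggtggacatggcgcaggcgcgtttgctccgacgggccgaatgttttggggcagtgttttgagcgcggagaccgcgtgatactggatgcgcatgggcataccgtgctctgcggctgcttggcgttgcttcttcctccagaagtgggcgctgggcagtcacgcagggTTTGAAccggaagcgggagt
FANCD2: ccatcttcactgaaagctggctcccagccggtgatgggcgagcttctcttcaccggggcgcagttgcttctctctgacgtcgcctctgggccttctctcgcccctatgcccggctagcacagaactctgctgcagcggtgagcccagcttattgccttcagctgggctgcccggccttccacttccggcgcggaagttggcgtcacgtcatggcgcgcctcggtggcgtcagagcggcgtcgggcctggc
PMS2: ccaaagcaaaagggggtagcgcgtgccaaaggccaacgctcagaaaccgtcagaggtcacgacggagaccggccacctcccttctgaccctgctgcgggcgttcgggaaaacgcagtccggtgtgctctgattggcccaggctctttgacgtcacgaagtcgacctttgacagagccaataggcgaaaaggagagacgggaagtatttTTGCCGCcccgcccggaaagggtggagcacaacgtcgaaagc
BRCA2: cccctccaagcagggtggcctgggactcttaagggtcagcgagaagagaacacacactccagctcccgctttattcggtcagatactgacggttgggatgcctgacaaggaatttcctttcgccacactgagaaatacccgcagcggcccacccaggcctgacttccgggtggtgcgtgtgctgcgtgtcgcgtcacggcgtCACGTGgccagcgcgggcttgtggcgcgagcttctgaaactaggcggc
BRCA1 carries 1 E2F match from -47 to -41 relative to the start and RAD51AP1 1 from -21 to -15. BLM carries 1 E2F and 1 CHR match, PMS2 carries an E2F match, ATM a CHR match and BRCA2 the E-box, while FANCD2 holds none of these letters. A promoter was listed for 32 members; DNA2, FANCI, NBN and RAD54B had none. Counting any listed start, 12 of the 32 held an E2F motif (37.5%), against 13% of all 27305 genes with a promoter and 21.1% of the 10942 of these that were tested. CHR motifs stood in 6 members (18.8%), against 25.5% of all and 19.3% of tested genes, and the E-box in 1 (3.12%), against 7.73% and 11.1%. In melatonin 7 of the 12 members with an E2F motif fell, as did 13 of the 20 without one. A match describes the letters only, and nothing about binding was measured.

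Of the BRCA proteins, 4 of 5 fell in melatonin-treated cells and none rose, with a median of -0.34. BRCA1, a ubiquitin ligase that steers breaks into recombination, stood at 39.3, 38.7 and 40.8 CPM in the melatonin libraries, 49.9, 42.9 and 51.7 CPM in the siCLOCK libraries and 54.2, 51.6 and 53.0 CPM in the control libraries. Each melatonin library lay below each of the other 6, and the log2 fold change of -0.42 (SE 0.0766, adjusted p = 0.000692) passed. BARD1, its obligate ligase partner, had 27.8, 27.4 and 27.8 CPM in the melatonin libraries, 26.02, 30.2 and 37.8 CPM in the siCLOCK libraries and 34.6, 35.0 and 39.4 CPM in the control libraries. Its melatonin values were close to one another and below every control, but siCLOCK replicate 1 was lower still; the change against control was -0.39 (SE 0.106, adjusted p = 0.0114). BRIP1, a helicase bound by BRCA1, averaged 26.8 ± 1.27 CPM in melatonin libraries, against 33.9 ± 3.72 CPM in controls (SD, n = 3 each; log2 fold change -0.34, SE 0.0965, adjusted p = 0.016). BRCA2, which loads the recombinase, had 24.3, 24.2 and 21.3 CPM in the melatonin libraries, against 25.4, 27.3 and 30.0 CPM in the control libraries. The groups did not overlap but came close, and the change was -0.24 (SE 0.0872, adjusted p = 0.0498). PALB2, the bridge between BRCA1 and BRCA2, averaged 16.7 ± 1.07 CPM in melatonin libraries, against 16.8 ± 0.461 CPM in controls (SD, n = 3 each; log2 fold change -0.0044, SE 0.101, adjusted p = 0.983). The call for BARD1 was lost without control replicate 3 (adjusted p = 0.0543) and that for BRIP1 without control replicate 2, control replicate 3 or melatonin replicate 3 (0.0526 to 0.0832). BRCA2 lost its call without control replicate 2 or 3, siCLOCK replicate 2 or any melatonin library (0.0531 to 0.22).

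Strand exchange had 5 of 7 genes lower, none higher and a median of -0.42, and held the largest fall of a single member. RAD51AP1, which stimulates strand invasion, stood at 41.2, 38.4 and 40.0 CPM in the melatonin libraries, 62.3, 63.2 and 61.2 CPM in the siCLOCK libraries and 70.5, 66.9 and 72.9 CPM in the control libraries. The melatonin values were far below all others, and the siCLOCK values were also below every control by a smaller margin; against control the melatonin change was -0.82 (SE 0.0671, adjusted p = 2.05e-07). RAD54L, the motor protein that lets the filament search and remodel the duplex, had 22.6, 24.6 and 23.8 CPM in the melatonin libraries, 39.1, 39.2 and 34.5 CPM in the siCLOCK libraries and 37.3, 39.6 and 37.8 CPM in the control libraries. Here the siCLOCK and control libraries overlapped, and the melatonin log2 fold change of -0.69 (SE 0.0795, adjusted p = 6.46e-06) passed. Reads over the 25.1% of its exon bases that overlap LRRC41 on the other strand are not in these counts. RAD54B, a related motor, had 5.86, 4.44 and 4.32 CPM in the melatonin libraries, against 5.36, 7.36 and 6.73 CPM in the control libraries, levels understated because reads over the 59.1% of its exon bases shared with FSBP on the same strand are not counted. Melatonin replicate 1 lay within the control range, and the change of -0.42 (SE 0.161, adjusted p = 0.0656) did not pass; it passed without control replicate 1, siCLOCK replicate 1, siCLOCK replicate 3 or melatonin replicate 1 (0.0322 to 0.0464).

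The recombinase paralogs, which stabilise the filament, differed among themselves. XRCC2 had 43.2, 42.2 and 43.5 CPM in the melatonin libraries, 62.0, 52.1 and 56.1 CPM in the siCLOCK libraries and 51.8, 55.6 and 61.7 CPM in the control libraries. Its melatonin libraries lay close together and below every other library (log2 fold change -0.39, SE 0.0805, adjusted p = 0.00177). XRCC3 averaged 31.2 ± 1.23 CPM in melatonin libraries, against 41.9 ± 3.27 CPM in controls (SD, n = 3 each; log2 fold change -0.43, SE 0.0806, adjusted p = 0.000923). That gene shares 76.7% of its exon bases with KLC1 on the opposite strand, and reads over those bases are not in these counts. In the 2 single-strand counts, which in unstranded libraries add KLC1 reads and so are no check on XRCC3, the value was -0.16 and -0.17 (adjusted p = 0.145 and 0.136). RAD51C averaged 45.9 ± 3.05 CPM in melatonin libraries, against 55.0 ± 2.46 CPM in controls (SD, n = 3 each; log2 fold change -0.26, SE 0.0855, adjusted p = 0.0327), and the call was lost without any of the control libraries, melatonin replicate 1 or melatonin replicate 2 (0.0545 to 0.142). RAD51D, at 8.20, 9.40 and 9.70 CPM in melatonin libraries against 8.97, 9.74 and 9.42 CPM in controls, overlapped between groups and did not pass (log2 fold change -0.039, SE 0.112, adjusted p = 0.845).

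The resection and dissolution genes split in direction: 4 of 7 fell, NBN rose and 2 did not pass, with a median of -0.28. MRE11, RAD50 and NBN form 1 complex that senses and first trims broken ends, and their transcripts did not move together. MRE11, the nuclease, had 36.4, 35.1 and 34.6 CPM in the melatonin libraries, 42.1, 40.7 and 44.9 CPM in the siCLOCK libraries and 42.5, 46.0 and 46.8 CPM in the control libraries. Every melatonin value lay below the other 6 (log2 fold change -0.35, SE 0.0732, adjusted p = 0.00199). NBN, the subunit that recruits ATM, had 90.5, 85.3 and 84.5 CPM in the melatonin libraries, 80.2, 66.5 and 74.9 CPM in the siCLOCK libraries and 65.7, 66.4 and 83.1 CPM in the control libraries. The melatonin libraries were highest, although control replicate 3 came close to them while the other controls were far lower, and the change was 0.27 (SE 0.0878, adjusted p = 0.0298). That call was lost without control replicate 1 or 2 or any melatonin library (0.0677 to 0.151). RAD50, the coiled-coil subunit, averaged 6.32 ± 0.507 CPM in melatonin libraries, against 5.81 ± 0.154 CPM in controls (SD, n = 3 each) and did not pass (log2 fold change 0.12, SE 0.127, adjusted p = 0.549). Because 79.7% of its exon bases are shared with the overlapping gene AC116366.3 on the same strand, reads over those bases are not in these counts. The single-strand counts gave opposite signs, 0.63 in the first, which passed (adjusted p = 0.0176, and 0.0323 against siCLOCK), and -0.30 in the second, which did not (0.179).

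Downstream of that complex the enzymes of longer resection fell. EXO1, an exonuclease, averaged 36.02 ± 3.53 CPM in melatonin libraries, against 46.1 ± 4.30 CPM in controls (SD, n = 3 each; log2 fold change -0.36, SE 0.0864, adjusted p = 0.00577). DNA2, a helicase and nuclease, averaged 18.98 ± 0.877 CPM in melatonin libraries, against 23.1 ± 1.72 CPM in controls (SD, n = 3 each; log2 fold change -0.28, SE 0.0964, adjusted p = 0.0418). BLM, the helicase that works with DNA2 and later dissolves the joined molecules, had 29.4, 26.1 and 28.6 CPM in the melatonin libraries, 36.8, 33.0 and 35.8 CPM in the siCLOCK libraries and 36.8, 37.5 and 39.2 CPM in the control libraries. Its melatonin libraries lay below all others, and the log2 fold change of -0.43 (SE 0.0783, adjusted p = 0.000607) was the largest of the group. RBBP8, which switches on the MRE11 nuclease, was lower in each melatonin library than in each control, at 80.1, 75.0 and 76.7 CPM in the melatonin libraries, against 82.1, 83.0 and 94.8 CPM in the control libraries, but the log2 fold change of -0.17 (SE 0.0732, adjusted p = 0.111) did not pass. DNA2 lost its call without control replicate 2 or 3 or any melatonin library (0.0661 to 0.143).

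The checkpoint genes also moved in both directions, with 3 of 5 lower, ATM higher and a median of -0.24. ATM, the kinase that responds to breaks, had 80.8, 80.0 and 77.3 CPM in the melatonin libraries, 59.6, 62.9 and 69.9 CPM in the siCLOCK libraries and 59.5, 62.2 and 65.5 CPM in the control libraries. All 3 melatonin libraries exceeded every other library, and the log2 fold change of 0.35 (SE 0.0711, adjusted p = 0.00173) passed in all 9 fits that left out 1 library. ATR, the related kinase that responds to bare single strands, had 53.3, 52.0 and 50.1 CPM in the melatonin libraries, against 46.1, 51.7 and 52.8 CPM in the control libraries. These ranges overlapped and the log2 fold change of 0.046 (SE 0.0718, adjusted p = 0.69) did not pass. TOPBP1, the activator of ATR, averaged 131 ± 3.39 CPM in melatonin libraries, against 162 ± 8.16 CPM in controls (SD, n = 3 each; log2 fold change -0.30, SE 0.0633, adjusted p = 0.00202). CHEK1, the effector kinase below ATR, averaged 51.0 ± 1.75 CPM in melatonin libraries, against 60.1 ± 4.75 CPM in controls (SD, n = 3 each; log2 fold change -0.24, SE 0.0759, adjusted p = 0.0296). CHEK2, the effector kinase below ATM, averaged 22.6 ± 1.14 CPM in melatonin libraries, against 27.95 ± 2.83 CPM in controls (SD, n = 3 each; log2 fold change -0.31, SE 0.103, adjusted p = 0.0364), so that ATM and CHEK2 changed in opposite directions. With a term for the technical set of libraries neither passed, ATM being at 0.16 (SE 0.114, adjusted p = 0.499) and CHEK2 at -0.11 (SE 0.166, adjusted p = 0.782). CHEK2 has 4 pseudogenes by name, and reads that map to more than 1 place are not in these counts. CHEK1 lost its call without control replicate 2 or 3 or any melatonin library (0.0584 to 0.135), and CHEK2 without control replicate 1 or 2 or melatonin replicate 2 or 3 (0.0777 to 0.188).

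Of the 10 Fanconi genes 6 fell and none rose, with a median of -0.52. FANCD2, which is ubiquitinated when the pathway is switched on, had 35.4, 37.6 and 35.6 CPM in the melatonin libraries, 58.0, 54.8 and 54.0 CPM in the siCLOCK libraries and 56.7, 59.8 and 58.9 CPM in the control libraries. The melatonin values lay well below the other 6, and the log2 fold change of -0.69 (SE 0.0685, adjusted p = 1.21e-06) passed. FANCI, its partner on DNA, had 69.4, 69.9 and 67.5 CPM in the melatonin libraries, 94.0, 96.3 and 102 CPM in the siCLOCK libraries and 98.9, 106 and 109.8 CPM in the control libraries. It showed the same order of groups, with a log2 fold change of -0.60 (SE 0.065, adjusted p = 2.97e-06). UBE2T, the ubiquitin-conjugating enzyme that supplies the reaction, had 46.9, 47.4 and 47.5 CPM in the melatonin libraries, 69.4, 63.4 and 70.6 CPM in the siCLOCK libraries and 60.6, 70.0 and 73.0 CPM in the control libraries. Its melatonin libraries lay close together and below the other 6, and the change was -0.52 (SE 0.0762, adjusted p = 8.37e-05).

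Among the subunits of the Fanconi core complex, which acts as the ubiquitin ligase, 3 fell and the rest did not pass. FANCA had 57.9, 60.7 and 57.9 CPM in the melatonin libraries, 80.9, 85.9 and 76.2 CPM in the siCLOCK libraries and 80.8, 87.3 and 85.7 CPM in the control libraries. The melatonin libraries were lowest throughout (log2 fold change -0.52, SE 0.0674, adjusted p = 2.26e-05), although 23.6% of the gene's exon bases overlap ZNF276 on the opposite strand. FANCG, which binds FANCA, averaged 44.3 ± 2.7 CPM in melatonin libraries, against 65.2 ± 5.81 CPM in controls (SD, n = 3 each; log2 fold change -0.56, SE 0.0765, adjusted p = 4.46e-05). FANCE, which contacts FANCD2, averaged 14.6 ± 0.897 CPM in melatonin libraries, against 20.9 ± 1.22 CPM in controls (SD, n = 3 each; log2 fold change -0.51, SE 0.09, adjusted p = 0.000498). FANCL, the catalytic subunit, averaged 27.1 ± 1.797 CPM in melatonin libraries, against 25.2 ± 1.18 CPM in controls (SD, n = 3 each) and did not pass, at 0.098 (SE 0.0866, adjusted p = 0.447). Values for the others were -0.18 (SE 0.145, adjusted p = 0.416) for FANCB, -0.14 (SE 0.0849, adjusted p = 0.258) for FANCC and 0.0081 (SE 0.108, adjusted p = 0.969) for FANCM, the translocase that anchors the complex. The X-linked FANCB was among the least precise members, with an SD of 1.10 CPM around 10.4 CPM in melatonin libraries and of 1.77 CPM around 11.7 CPM in controls. All 6 Fanconi genes that fell kept their call in each of the 9 fits that left out 1 library.

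Neither mismatch repair gene passed. MSH6, which recognises mispairs, had 194, 182 and 180.4 CPM in the melatonin libraries, 187, 181 and 184 CPM in the siCLOCK libraries and 197, 179.8 and 209 CPM in the control libraries. The 3 groups overlapped, with a log2 fold change of -0.073 (SE 0.0648, adjusted p = 0.451) in melatonin. PMS2, the endonuclease subunit that nicks the new strand, had 27.2, 26.8 and 27.9 CPM in the melatonin libraries, against 29.1, 28.8 and 31.4 CPM in the control libraries. Each melatonin library was below each control by a small margin, and the log2 fold change of -0.12 (SE 0.0815, adjusted p = 0.291) did not pass. PMS2 has 11 pseudogenes by name, so its reads may be shared, and 16.2% of the exon bases of MSH6 overlap FBXO11 on the opposite strand. Their median was -0.099, and at an unadjusted p under 0.05 neither passed.

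The members differed widely in level. Per kilobase of exon, UBE2T was the highest in every group, at 28.6 CPM per kilobase in melatonin, 41.0 in siCLOCK and 41.1 in control libraries. RAD51AP1 stood at 15.6, 24.3 and 27.4 CPM per kilobase in the same order, and TOPBP1 at 17.99, 20.7 and 22.2. RAD50 was the lowest in controls, at 0.595 CPM per kilobase, a level that its shared exons understate. The median of the 36 in controls was 6.6 CPM per kilobase. BRCA2, which loads the recombinase, was among the lowest at 1.89 CPM per kilobase in melatonin libraries and 2.24 in controls. Across the 36 genes the control level and the melatonin log2 fold change had a Spearman rho of -0.43, a description over genes that share the same control libraries, which enter both quantities.

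**Figure D3:**
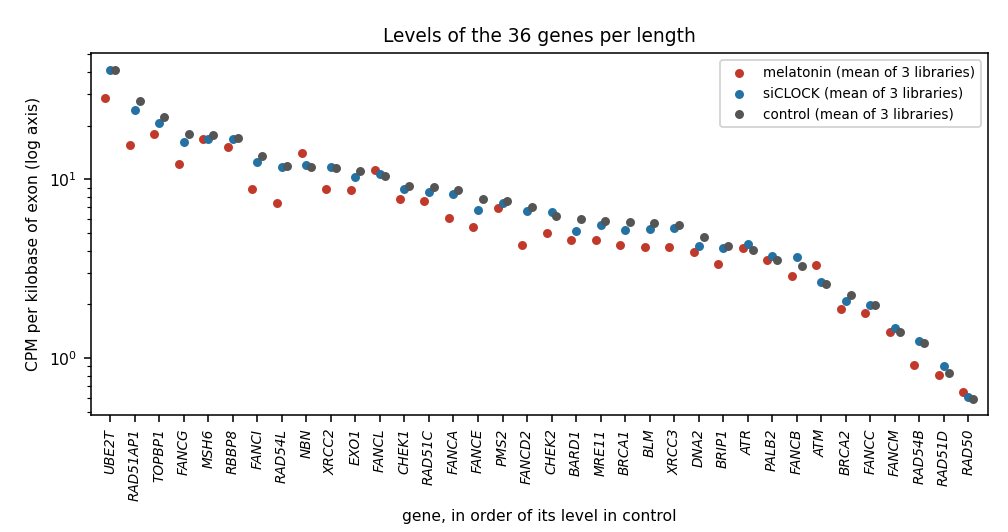
Mean level of each gene per kilobase of exon (y axis, CPM per kilobase, log axis) in melatonin (red), siCLOCK (blue) and control (grey) libraries, 3 each, with genes in order of their control level along the x axis. Levels run from 41.1 for UBE2T to 0.595 for RAD50 in controls, and the red points of RAD51AP1, FANCD2 and RAD54L stand farthest below the grey ones.

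None of the 36 genes changed in siCLOCK libraries against controls at an adjusted p under 0.05. Over all genes tested, 0.0669% were lower and 0.0547% higher, so few calls were made anywhere. The fold changes lay between -0.21 for BARD1 and 0.17 for FANCB, with a median of -0.040 against 0.0032 over all genes and a median SE of 0.0800. At an unadjusted p under 0.05, 2 members were lower, where 3.75% of all genes were, and none was higher, where 4.49% were. These were RAD51AP1 (-0.17, SE 0.0652, adjusted p = 0.442) and FANCE (-0.21, SE 0.0878, adjusted p = 0.517), the only members in which every siCLOCK library lay below every control, as was so for 5.06% of all genes. FANCE had 19.4, 17.5 and 17.3 CPM in siCLOCK libraries, against 20.7, 22.1 and 19.7 CPM in control libraries. Neither limma-voom nor DESeq2 called any at an adjusted p under 0.05, but DESeq2 gave an adjusted p for only 28 of the 36, and FANCE was among the 8 without one. By group the siCLOCK medians were -0.096 for the BRCA proteins, -0.023 for strand exchange, -0.081 for resection and dissolution, 0.040 for the checkpoint, -0.032 for the Fanconi genes and -0.055 for mismatch repair. BARD1 came nearest to the threshold under any alternative, with an adjusted p of 0.0518 when a term for the technical set was added, and its siCLOCK libraries were spread from 26.02 CPM in replicate 1 to 37.8 CPM in replicate 3. CLOCK itself was near control level in replicate 3, and without that library again no member passed, while 0.257% of all genes were lower and 0.359% higher.

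Set against siCLOCK, melatonin-treated cells had 16 of the 36 members lower, where 10.1% of all genes tested were lower, and 1 higher, where 7.43% were higher; the median was -0.23 against 0.0025 over all genes. ATM was the one that rose (0.31, SE 0.0709, adjusted p = 0.00588). By group, 2 BRCA genes, 4 strand exchange genes, 2 resection genes, 2 checkpoint genes and 6 Fanconi genes were lower, and no mismatch repair gene was. RAD54L (-0.67, SE 0.0795, adjusted p = 1.63e-05), RAD51AP1 (-0.64, SE 0.0673, adjusted p = 4.68e-06) and FANCD2 (-0.62, SE 0.0686, adjusted p = 8.5e-06) showed the largest differences. CHEK2 differed by -0.39 (SE 0.102, adjusted p = 0.0127), and NBN by 0.23 (SE 0.0877, adjusted p = 0.0738), which did not pass although every melatonin library exceeded every siCLOCK library. All 16 were also lower against control, but both comparisons use the same melatonin libraries. Without melatonin replicate 2 the count was 9, where 6.18% of all genes were lower, as BRCA1, BRIP1, MRE11, BLM, CHEK2, TOPBP1 and FANCE no longer passed. Without siCLOCK replicate 3 it was 15, where 12.9% of all genes were lower, and 1 member was higher.

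The 3 melatonin libraries share their technical set with siCLOCK replicate 3 and with no control, so treatment and set are separated only through the siCLOCK libraries. With a term for the set, 13 members were lower in melatonin than in control (36.1%), where 2.96% of all genes were lower, and none was higher, where 1.72% were; by edgeR none was higher at an unadjusted p under 0.05 either. All 22 members that fell kept a negative sign, in a fit of the same melatonin libraries by which they had been called. The median was -0.35, and the median SE was 0.138 with the term and 0.0811 without it. RAD51AP1 was then at -0.78 (SE 0.115, adjusted p = 0.000222), FANCI at -0.70 (SE 0.109, adjusted p = 0.000388) and FANCD2 at -0.63 (SE 0.117, adjusted p = 0.00206). BRCA2, RAD51C, XRCC2, XRCC3, EXO1, CHEK1, CHEK2, TOPBP1 and FANCE no longer passed, and neither did ATM or NBN at 0.24 (SE 0.151, adjusted p = 0.409). Of those that had fallen, BRCA2 (-0.35), CHEK1 (-0.35), TOPBP1 (-0.34), EXO1 (-0.37) and RAD51C (-0.28) had log2 fold changes larger in size than without the term, and XRCC2 (-0.37), XRCC3 (-0.34), FANCE (-0.41) and CHEK2 had smaller ones. Within the set, the melatonin libraries could be compared with siCLOCK replicate 3 alone, which is assumed to vary like the others: 21 members were lower, where 9.67% of genes were, and NBN was higher, where 7.92% were. Of the 22 that fell against control, all had a negative sign there. The same melatonin libraries enter both comparisons, so the shared sign is no independent check. Median changes of the 36 in single libraries, on the log2 scale relative to control, were -0.24, -0.35 and -0.35 in melatonin, against -0.012, -0.11 and -0.038 in siCLOCK, the last being the library of the same set.

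**Figure D4:**
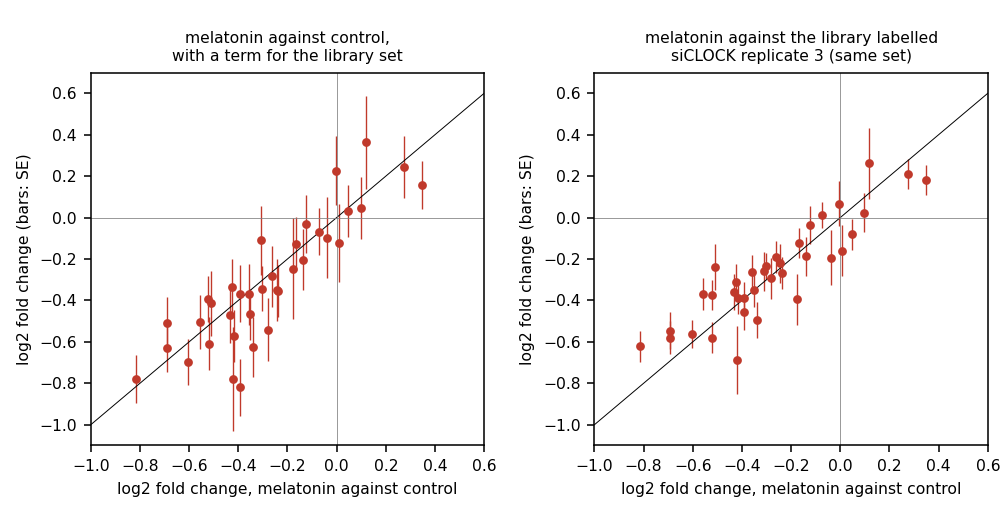
Log2 fold change of each of the 36 genes for melatonin against control (x axis) beside its value with a term for the technical set of libraries (left, y axis) and for melatonin against the library labelled siCLOCK replicate 3 of the same set (right, y axis), with standard errors as bars and the line of equality. All 22 members that fell lie below 0 on both y axes, with wider bars on the left. The same melatonin libraries enter the x axis and both y axes.

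Neighbouring repair pathways were described from lists of other genes. Their counts are to be read beside all genes tested, of which 12.1% were lower and 11% higher in melatonin against control. Of 29 other homologous recombination genes 9 were lower and SWI5 higher in melatonin against control (median -0.13); RMI2, a partner of BLM, was at -0.72 (SE 0.0866, adjusted p = 1.04e-05), and MUS81 and EME1, which form a nuclease for joined molecules, at -0.48 (SE 0.0757, adjusted p = 0.000185) and -0.51 (SE 0.0815, adjusted p = 0.000199). Of 16 other Fanconi genes 7 were lower and ERCC4 higher (median -0.13), led by RFWD3, a ubiquitin ligase, at -0.54 (SE 0.0658, adjusted p = 1.21e-05), USP1, which removes ubiquitin from FANCD2, at -0.43 (SE 0.0739, adjusted p = 0.000356), and FAAP24, the partner of FANCM, at -0.57 (SE 0.1, adjusted p = 0.000471). The 14 further mismatch repair genes, most of which also serve replication, had 9 lower and MSH3 higher (median -0.35), with LIG1, a DNA ligase, at -0.58 (SE 0.0788, adjusted p = 4.3e-05), PCNA, the sliding clamp, at -0.44 (SE 0.067, adjusted p = 0.000116) and RFC3, a clamp loader subunit, at -0.48 (SE 0.0795, adjusted p = 0.000267).

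Of 18 other checkpoint genes 10 were lower and TP53BP1 higher (median -0.24), with the kinase WEE1 at -0.56 (SE 0.077, adjusted p = 4.83e-05), the histone H2AFX, which is phosphorylated at breaks, at -0.56 (SE 0.079, adjusted p = 6.28e-05) and CLSPN, the adaptor of CHEK1, at -0.44 (SE 0.0715, adjusted p = 0.000247). End joining, which needs no sister copy, had 6 of 10 tested genes lower and LIG4 higher (median -0.23). POLQ, the polymerase of the error-prone branch, was at -0.43 (SE 0.082, adjusted p = 0.00103), XRCC4 at -0.42 (SE 0.0916, adjusted p = 0.00265) and the kinase PRKDC at -0.27 (SE 0.0645, adjusted p = 0.00559). Base and nucleotide excision repair had 6 of 22 lower and ERCC6 and CETN2 higher (median -0.095). Over all genes tested, 12.1% were lower and 11% higher in melatonin against control. DDB2, a sensor of ultraviolet damage, was at -0.46 (SE 0.0836, adjusted p = 0.000585), ERCC6, which acts at stalled transcription, at 0.43 (SE 0.0937, adjusted p = 0.00275) and PARP1 at -0.27 (SE 0.0618, adjusted p = 0.00351). In every one of these lists no gene passed in siCLOCK against control, where 0.0669% of all genes were lower and 0.0547% higher.

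Both cell cycle lists had lower medians than any repair list in melatonin against control. In that comparison 12.1% of all genes tested were lower. All 20 S phase genes were lower in melatonin against control (median -0.64), among them UHRF1 at -0.88 (SE 0.072, adjusted p = 2.05e-07), POLA1 at -0.66 (SE 0.0622, adjusted p = 7.71e-07) and CDT1 at -0.77 (SE 0.0756, adjusted p = 1.17e-06). Of 20 G2 and mitosis genes 19 were lower and NUSAP1 did not pass (median -0.72); UBE2C was at -0.99 (SE 0.063, adjusted p = 2.46e-08), KIF20A at -0.85 (SE 0.0611, adjusted p = 8.17e-08) and KIF23 at -0.75 (SE 0.0592, adjusted p = 1.44e-07). In siCLOCK against control none of either list passed, where 0.0669% of all genes were lower and 0.0547% higher. The medians of the S phase list and of the G2 and mitosis list were -0.11 and -0.16. At an unadjusted p under 0.05, 3 and 12 of 20 were lower, where 3.75% of all genes were. Library by library, the medians of the 36 repair genes, the Fanconi genes and the S phase list were all lowest in the melatonin libraries, while the 2 mismatch repair genes had medians between -0.12 and -0.067 in melatonin libraries and between -0.080 and 0.087 in controls.

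**Figure D5:**
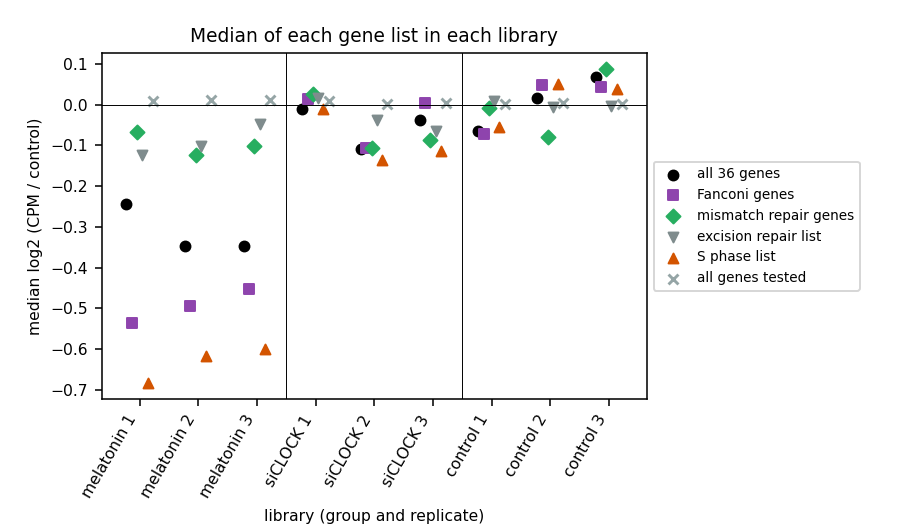
Median log2 ratio of CPM to control for the 36 repair genes, the Fanconi and mismatch repair members, the excision repair list, the S phase list and all genes tested (y axis) in each of the 9 libraries (x axis, melatonin left, control right). In the 3 melatonin libraries the S phase list lies at -0.68 to -0.60 and the Fanconi genes at -0.54 to -0.45, while all genes tested stay at 0.0082 to 0.011.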

How the data were processed

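Per the labels, total RNA of 9 libraries was sequenced in pairs on a BGIseq500 instrument. The deposited values are raw counts per gene, which the authors made with STAR 2.7.9a on GRCh38 (hg38), per the submitters' processing notes. The annotation release is not given in the sources used here; all 58721 gene identifiers match GENCODE release 29, which supplied symbols and exons. STAR assigns a read to a gene only where it overlaps 1 gene, so shared exons are not counted, and 9.77% to 10.6% of reads were ambiguous. Reads that map to more than 1 place, 3.57% to 3.83%, are left out too. Besides CHEK2 and PMS2, RAD51AP1, MRE11, RBBP8 and FANCD2 each have 1 pseudogene by name. The ratio of strand totals was 1.01 to 1.05, so the libraries were unstranded and strand was ignored; reads of overlapping, antisense or near-identical genes cannot be told apart.

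The analysis used edgeR 4.0.16 in R 4.3.3: filterByExpr kept 16441 genes, libraries were scaled by TMM, and a single quasi-likelihood model of the 3 groups covered all 9 libraries (biological coefficient of variation 0.0682). F tests were two-sided, with Benjamini-Hochberg adjustment over the genes kept and a threshold of 0.05. CPM are TMM-scaled, and SE was taken as the log2 fold change over the root of F. Between 2 replicates of a group, squared differences per gene averaged 1.69 to 3.24 times those of counting alone in melatonin libraries. They averaged 3.72 to 5.63 times in control and 9.31 to 13.3 times in siCLOCK libraries, while the model gave each gene 1 spread for all groups. Levels per kilobase divide CPM by the merged exon length. Library medians are log2 ratios to the control mean with 0.1 CPM added. Alternatives used DESeq2 1.42.0, limma 3.58.1 (voom), other scalings, filters, count columns, thresholds, a replicate block, a technical set term and leaving out each library. Technical sets were divided at 1.8% unmapped reads. Every member is named; of each other list, the 3 genes with the smallest p in melatonin against control are named, and any further name was chosen after its values were seen. The members, the lists, the promoter motifs and the alternatives were chosen with earlier results of these data known.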

Additional observations from a re-analysis of the deposited data

How the results depend on the processing

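Across 21 alternatives, 10 of the 22 members that fell in melatonin against control passed in each: BRCA1, RAD51AP1, RAD54L, MRE11, BLM, FANCA, FANCG, UBE2T, FANCD2 and FANCI. No call changed sign under any alternative, and no member passed in siCLOCK against control under any that gave it an adjusted p (DESeq2 gave none for 8 members). In melatonin against control 20 to 24 members were lower and 2 higher with other tools, scalings, filters or only the 6 libraries compared. These were DESeq2, limma-voom, RLE or upper-quartile scaling, no filter and the 5 CPM filter. With no filter 6.68% of all genes were lower and 4.55% higher, and with the 5 CPM filter 16.5% and 13.7%. With only those 6 libraries the shares were 17.5% and 15.6%, and in the rest 11.1% to 12.5% and 8.97% to 11.1%. With the technical set term 13 were lower and 0 higher against control, where 2.96% and 1.72% of all genes were. Against siCLOCK 14 were lower and 0 higher, where 3.85% and 1.995% were. In unstranded libraries single-strand counts hold only part of each gene's reads and add reads of genes on the opposite strand. In these counts 17 (first strand column) and 16 (second) were lower against control, where 10.6% and 10.5% of all genes were. Against siCLOCK 10 and 14 were lower, where 7.84% and 8.08% were. In each case 2 were higher, where 7.87% and 8.26% of all genes were against control and 4.925% and 5.17% against siCLOCK. Against control BRCA2, XRCC3, DNA2 and CHEK1 lost their calls in both columns, BRIP1 and NBN in the first, and RAD51C, EXO1 and CHEK2 in the second, while RAD50 passed as higher in the first and RAD54B as lower in the second. At an adjusted p under 0.01, 15 were lower and 1 higher against control, where 6.92% and 5.25% of all genes were, and 10 were lower and 1 higher against siCLOCK, where 5.31% and 2.82% were. Leaving out 1 library at a time gave 16 to 23 lower and 1 to 2 higher against control. In those fits 8.20% to 14.6% of all genes were lower and 6.355% to 13.2% higher. Against siCLOCK 9 to 19 were lower and 1 to 2 higher, where 6.18% to 12.9% and 3.71% to 10.2% of all genes were. The lone higher member was ATM, and the 9 came without melatonin replicate 2. The cause of these differences was not tested. Same-numbered libraries deviated from their group means with correlations of -0.091 to 0.063 over genes. No shared effect of the replicate number was seen, which does not show how the libraries were prepared. With the replicate block 20 members were lower and 2 higher against control, where 11.4% and 10.1% of all genes were. BRCA2 and DNA2 no longer passed. In siCLOCK against control 0 members changed, where 0.0487% of all genes were lower and 0.0243% higher. Set against siCLOCK, melatonin had 16 members lower and 1 higher, where 9.43% and 7.07% of all genes were. Every member had counts well above 0 in each library; RAD54B, FANCB and RAD50, all of low counts, had the widest errors in melatonin against control.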
